A study of Drosophila melanogaster with 2 samples.

Results

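CG4404 is an uncharacterised Drosophila protein of the MADF-BESS family, and the peaks described here are those that lay inside the start of a gene rather than in front of it. Its binding was mapped by chromatin immunoprecipitation and sequencing (ChIP-seq) in Drosophila melanogaster embryos of the strain CG4404-GFP, 0 to 4 hours old. The flies carried a transgene for a CG4404-eGFP fusion, precipitated through the tag from whole embryos, with chromatin sonicated to 200 to 800 bp. There was 1 group of 2 biological replicates and no second genotype, treatment or age. The fusion is a transgene, whole embryos mix all cell types present at that age, and no control library was analysed here.

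The members were chosen by position alone, from the peaks the authors called on the pooled replicates at an irreproducible discovery rate (IDR) of 0.01 or less. A summit, the base of highest signal in a peak, had to lie within 500 bp of the transcription start site (TSS) of a protein-coding gene. All protein-coding TSSs within 500 bp had to be on 1 strand, and the summit had to lie at or downstream of the nearest of them. Of 3835 summits on the 7 chromosome arms, 162 met this rule (4.22%, 95% Wilson interval 3.63 to 4.91%). They made up 18.5% of the 875 peaks beside promoters of a single strand, and the other 713 lay upstream. A further 614 summits had TSSs of both strands within 500 bp, and 2346 had no protein-coding TSS that close.

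A core promoter is the short stretch around the TSS on which RNA polymerase II is assembled, and it can hold elements such as the TATA box and the initiator. Many sequence-specific factors bind in front of it. The stretch behind it is transcribed, and comprises the 5′ untranslated region (5′ UTR), the beginning of the coding sequence and often the first intron. MADF-BESS proteins carry a MADF domain, which binds DNA, and a BESS domain, which mediates contacts between proteins. Some members of the family act in hinge development and in the germ line.

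The sequences beneath some of the strongest peaks were rich in A and T. The following stretches surround the summits of 5 of the strongest members and of Hakai, a member whose summit lay in a coding exon. They are shown to set A- and T-rich summits beside a G- and C-rich one. Each is written 5′ to 3′ in the direction of the gene, from the Release 6 sequence of RefSeq, the same assembly as dm6. Capitals mark runs of at least 6 consecutive A or T bases.
PNPase, 5′ UTR, chr3R:31404643-31404672, minus strand: aaacgtacagggcTTTTATTgtaagatttt
ph-p, 5′ UTR, chrX:2137915-2137944, minus strand: acgtatgtcTATTATATAATTcTATTTTAc
CG4497, 5′ UTR, chr2L:7194535-7194564, minus strand: cATTATActacTAAATTgtctttgAATAAT
CG31612, first intron, chr2L:21794908-21795008, minus strand: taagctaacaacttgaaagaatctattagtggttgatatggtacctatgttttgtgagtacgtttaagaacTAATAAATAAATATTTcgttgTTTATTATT
CG43116, first intron, chr3R:25996565-25996665, minus strand: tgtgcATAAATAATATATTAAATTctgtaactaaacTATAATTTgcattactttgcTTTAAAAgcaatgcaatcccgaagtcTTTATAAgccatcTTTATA
Hakai, coding exon, chr2L:19582330-19582359, minus strand: ggaagtgaagcgcggccgcggacgagggcg
A and T made up 70% of the bases shown for PNPase, 80% for ph-p and CG4497, 74.3% for CG31612 and CG43116, and 23.3% for Hakai. The stretches shown are 30 or 101 bases long. G and C were also counted 100 bp either side of each summit. Their median was 41.8% over all 162 members, so the A- and T-rich stretches shown do not stand for the members as a whole. It was 35.8% over the 25 strongest members in both replicates, from 26.9 to 49.3%, and 34.3% over upstream peaks. Hakai, at 59.2%, was the highest of the 59 members found in both replicates.

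The pair of sequences that follows holds AGGGNTG, a word of the insulator zinc fingers pita and ZIPIC. Of 25 motifs, it alone passed the adjusted threshold with a higher share at the members' summits than further in the direction of the gene. The motifs were chosen with earlier results of these data known, which the adjustment does not cover. Upstream peaks showed a difference in the same direction. Capitals mark the word on either strand, in members of the 25 strongest.
RpL26, first intron, chr3L:18898999-18899028, plus strand: ccaatgctcttCACCCCTgacaagtacaac
zf30C, 5′ UTR, chr2L:9758328-9758357, plus strand: gcgctgcgaccAGGGCTGcattgccaccct
The centre of the word lay 48 bp from the summit at RpL26 and 30 bp from it at zf30C.

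By counts, given without a test, members were most frequent in the first 200 bp behind the TSS and fewest between 200 and 349 bp. The median summit was 146 bp into the gene, and the range was 1 to 499 bp. The first 200 bp held 97 members (59.9%), the stretch from 200 to 349 bp held 21 and that from 350 bp on held 44. On the upstream side the order was different: 364 of 713 peaks lay within 200 bp of the TSS, 235 lay 200 to 349 bp away and 114 lay further out. The upstream median was 195 bp in front of the TSS. In the replicates' own lists, replicate 1 gave 113 downstream summits with a median of 147 bp, and replicate 2 gave 74 with a median of 140.5 bp. The downstream share of one-strand promoter peaks was 15.1% in replicate 1 and 12.7% in replicate 2 (mean 13.9 ± 1.65%, SD, n = 2). Both replicates thus had a smaller downstream share than the pooled list.

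The 500 bp rule cuts through a continuous series of summits. Just inside the TSS lay Sqor at 1 bp, with a signal of 109. Just outside lay hpo and RpL30, each 1 bp in front of the TSS, with signals of 127 and 123. At the far edge nst lay at 499 bp with a signal of 67.1, and the next summit out, at Tat and CG46317, lay at 501 bp with a signal of 61. The signal is the authors' value for each peak, on a scale that is not stated, and it serves to rank peaks within a list.

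The rule allows a second start ahead of a summit. For 42 members another protein-coding TSS of the same strand lay ahead within 500 bp, so that their summit was behind one start and in front of another. Of these, 40 were among the 97 members of the first 200 bp, 2 were among the 21 between 200 and 349 bp, and none was among the 44 further in. The rule itself shapes these counts, since a TSS ahead must be farther from the summit than the one behind it and within 500 bp. The nearest TSS was the 5′-most of its gene for 101 members. The 162 summits belonged to 157 genes, 67 members to genes on the plus strand and 95 to genes on the minus strand. Of the upstream peaks 340 were at plus-strand and 373 at minus-strand genes (Fisher's exact test of the difference, two-sided p = 0.163). Arm 3L held 38 members, X 37, 3R 36, 2R 33 and 2L 18, and arms 4 and Y held none of the 5 summits listed there.

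**Figure D1:**
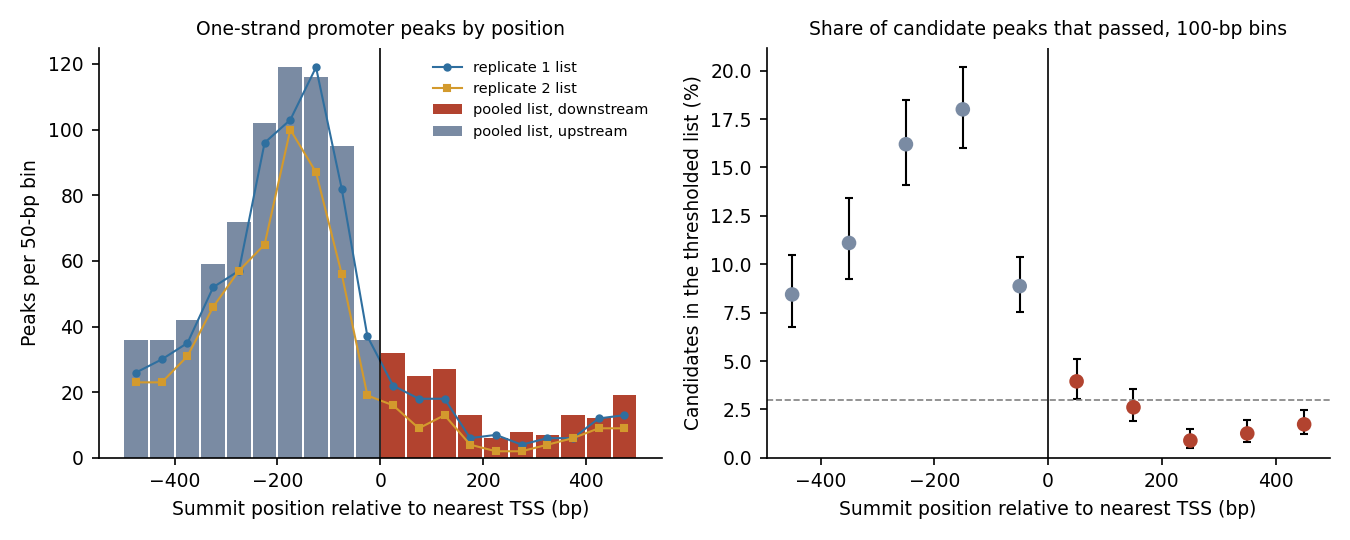
The left plot gives the number of one-strand promoter peaks per 50-bp bin of summit position relative to the nearest protein-coding TSS, with bars for the pooled list and lines for the list of each replicate. The right plot gives the percentage of candidate peaks that entered the pooled list per 100-bp bin, with 95% Wilson intervals and a dashed line at 2.98%, the share over all candidates; it is 18% between 200 and 101 bp in front of the TSS and 0.893% between 200 and 299 bp behind it.

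Candidate peaks, the authors' ranked list before the IDR threshold, were plentiful inside genes and seldom passed. Of 7934 candidates that met the position rule, 162 passed (2.04%, interval 1.75 to 2.38%). Over all 128756 candidates, 2.98% passed. In the upstream class 713 of 5613 passed (12.7%), and among candidates with TSSs of both strands 30.6% did. The odds of passing were 0.143 times those of the upstream class (Fisher's exact test, two-sided, p = 4.05e-139). Candidates with no protein-coding TSS within 500 bp passed in 2.07% of cases, close to the downstream value. The replicates' own ranked lists gave 1.63% of 6950 downstream candidates in replicate 1 and 1.04% of 7124 in replicate 2 (mean 1.33 ± 0.415%, SD, n = 2). The same lists gave 12.4% and 9.89% upstream (mean 11.1 ± 1.75%, SD, n = 2), so the classes did not overlap.

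Within genes the share that passed was highest next to the TSS and lowest between 200 and 299 bp. It was 3.95% from 0 to 99 bp (57 of 1444), 2.61% from 100 to 199 bp and 0.893% from 200 to 299 bp (14 of 1568). It was 1.26% from 300 to 399 bp and 1.73% from 400 to 499 bp. Of the 57 members from 0 to 99 bp, 30 had another coding TSS ahead, and its part in this order was not tested. Without candidates that had a TSS ahead, 1.58% of all downstream candidates passed. The interval of the lowest bin, 0.533 to 1.49%, lay below that of the first bin, 3.06 to 5.08%, and overlapped those of the last 2 bins.

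The strongest members were at genes of varied function. PNPase, the gene of polynucleotide phosphorylase, an exoribonuclease of mitochondria, had the highest signal, 1047 in the pooled list, 568 in replicate 1 and 487 in replicate 2. Its summit lay 82 bp into the gene, in the 5′ UTR. It ranked 37 among all 3835 peaks.

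A Polycomb gene came next. The peak of ph-p (polyhomeotic proximal, a subunit of Polycomb repressive complex 1) lay 441 bp into its first exon, with a signal of 1029 in the pooled list, 591 in replicate 1 and 488 in replicate 2. A still stronger upstream peak, of signal 2530.2, had its summit 601 bp away. A weaker member at another TSS of ph-p lay 41 bp into the gene and had 123 in the pooled list, 59.8 in replicate 1 and 65.1 in replicate 2.

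Further strong members in 5′ UTRs were GstE13, CG4497, CG9399 and CG18622. GstE13, a glutathione S-transferase gene of arm 2R, had 836 in the pooled list, 489 in replicate 1 and 355 in replicate 2. CG4497 had 705, 403 and 306 in the same order, and CG9399 had 611, 326 and 288. In each of these the summit lay less than 100 bp into the gene and 1 further coding TSS lay ahead. CG18622, with 511, 289 and 229, had its summit 200 bp in.

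The strongest members in first introns were CG31612, CG43116 and Ptp4E. CG31612 had 752 in the pooled list, 392 in replicate 1 and 361 in replicate 2, and its summit lay 489 bp into the gene, in a first intron of 19947 bp. CG43116 had 561, 273 and 289, in a first intron of 221 bp, 381 bp into the gene. Ptp4E, a receptor tyrosine phosphatase gene, had 484, 256 and 228. No further coding TSS lay ahead of any of these.

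Of the 25 strongest members found in both replicates, 13 had their summit in a 5′ UTR, 12 in an intron and none in a coding exon. Their signals ran from 216 to 1047 and their ranks in the whole list from 37 to 880. In replicate 1 their values ran from 121 to 591, in replicate 2 from 82.6 to 488, and replicate 1 was the higher for 21 of the 25. The scale is not stated, so this does not show stronger binding in replicate 1. Of them, 13 lay in the first 200 bp and 10 beyond 350 bp. Minus-strand genes made up 18 and plus-strand genes 7.

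The remaining genes of the 25 had signals of 216 to 433. The 5′ UTR peaks were those of Ufsp1 (a protease of the UFM1 modifier), amn (the amnesiac neuropeptide), Trl (the GAGA factor), CG12316, sw (the intermediate chain of cytoplasmic dynein), zf30C (a zinc-finger protein) and Eip75B (an ecdysone-induced nuclear receptor). The intron peaks were those of CG8128, egh (a glycosyltransferase of glycosphingolipid synthesis), sqh (the regulatory light chain of non-muscle myosin), RpL26, scramb2 (a phospholipid scramblase), rudhira, Cftr, hng3 and wde (a cofactor of a histone H3 lysine 9 methyltransferase). pnut, a septin gene, had 274 in the pooled list and 139 in replicate 1, and had no candidate in replicate 2.

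Members were found again in the replicates less often than other promoter peaks. Thresholded peaks of both replicates overlapped 59 of 162 members by at least 1 bp (36.4%, interval 29.4 to 44.1%), against 450 of 713 upstream peaks (63.1%). Over the whole list 53.2% were so overlapped. The odds ratio was 0.335 (Fisher's exact test, two-sided, Benjamini-Hochberg adjusted p = 9.84e-10 over 4 tests). Against peaks with TSSs of both strands, at 66.3%, the ratio was 0.291 (Fisher's exact test, adjusted p = 2.34e-11), and against peaks with no protein-coding TSS within 500 bp, at 47.9%, it was 0.623 (unadjusted p = 0.00552). These p-values measure the spread over peaks and not between replicates.

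Replicate 1 alone overlapped 41 members, replicate 2 alone 12, and neither overlapped 50 (30.9%, against 10.7% of upstream peaks). The lowest, median and highest signals were 20.9, 189 and 1047 for the members in both, and 3.16, 72.1 and 100.1 for those in neither. The groups thus overlapped between 20.9 and 100.1. Before thresholding, 161 members overlapped a candidate of replicate 1, with values from 21.9 to 591 and a median of 54.6. In replicate 2, 159 did, with values from 14.2 to 488 and a median of 46.4. The median over all candidates was 12.3 in replicate 1 and 13 in replicate 2. Members had passed the pooled threshold, and each was given its strongest overlapping candidate. Values above these medians follow from that choice and are no separate support for the members.

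Where both replicates had a peak, they placed it alike. The replicates' summits at the 59 members were a median of 15 bp apart and at most 92 bp. In 56 of the 59 the summit lay inside the gene in both replicates, in 1 it did so in a single replicate and in 2 in neither. The rule largely sets this count, so it is no separate support for the position. Members were chosen by a pooled summit inside the gene, and the replicate peaks had to overlap the pooled peak. Of the 450 upstream peaks in both replicates, 448 had the summit inside the gene in neither.

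**Figure D2:**
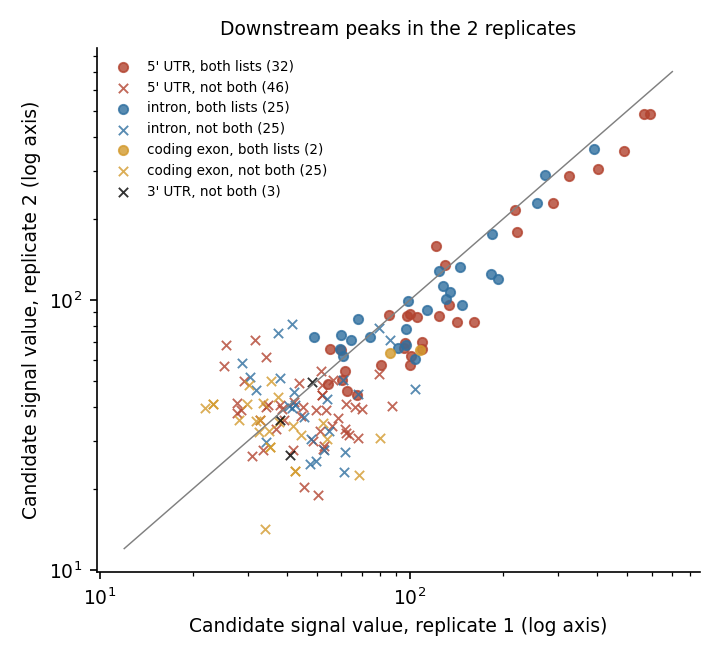
Each point is one of the 158 downstream peaks that overlapped a candidate peak in both replicates, at its candidate signal value in replicate 1 and in replicate 2, on log axes with the line of equality. Circles stand for the 59 peaks in the thresholded lists of both replicates and crosses for the rest, coloured by feature. The circles reach 591 and 488, and replicate 1 was the higher for 110 of the 158, on a scale that is not stated.

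Signal was also lower than at other promoters. The members ranged from 2.83 to 1047 with a median of 95.9, against a median of 144 for upstream peaks, 162 for peaks with TSSs of both strands and 106 for peaks with no protein-coding TSS within 500 bp. The list median was 118, and 49.99% of all peaks lay above it. Of the members 58 (35.8%) did, against 429 of the upstream peaks (60.2%), an odds ratio of 0.369 (Fisher's exact test, adjusted p = 2.45e-08). Among peaks with an IDR of 0.001 or less the ratio was 0.724 (Fisher's exact test, p = 0.208), and in the list of replicate 2 it was 0.626 (p = 0.0613).

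A small set of members had very low pooled values. All 14 members of signal under 20, from 2.83 to 17.9, had a stronger summit of the same list 199 to 220 bp away. They included the second summits of polo (8.48, beside one of 64.9 that was also a member) and of pck (16.5, beside one of 104). The strongest candidate that overlapped each of the 14 had 23.2 to 79.8 in replicate 1 and, for 13 of them, 22.5 to 54.4 in replicate 2. It may be that of the neighbouring summit, so the low pooled value does not show that binding there was weak. In all, 25 members overlapped another peak of the list, and 15 of these were beside a stronger one. Without overlapping peaks in either class, 40.9% of downstream and 65.2% of upstream peaks were in both replicates (odds ratio 0.368, Fisher's exact test, p = 2.25e-07).

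The part of the gene in which the summit lay went with whether a peak was called. Of the members 82 were in a 5′ UTR (50.6%), 50 in an intron (30.9%), 27 in a coding exon (16.7%) and 3 in a 3′ UTR (1.85%). Of the candidates that met the position rule, 32.9% were in a 5′ UTR, 15.7% in an intron and 50.6% in a coding exon. Thus 3.14% of the 5′ UTR candidates passed (interval 2.54 to 3.88%), 4.02% of the intron candidates (3.06 to 5.26%) and 0.672% of the coding-exon candidates (0.462 to 0.976%). The coding-exon interval did not reach these. Of the 57 candidates in 3′ UTRs 3 passed (5.26%, 1.81 to 14.4%).

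The median signal was 133 in introns, 98.7 in 5′ UTRs, 68.4 in coding exons and 64.9 for the 3 members in 3′ UTRs. Both replicates' lists held 25 of the 50 intron members, 32 of the 82 in 5′ UTRs and 2 of the 27 in coding exons. These 2 were CG44812, with 108 in replicate 1 and 65.4 in replicate 2, and Hakai (an E3 ubiquitin ligase gene), with 146 in the pooled list, 86.3 in replicate 1 and 63.5 in replicate 2. Base composition differed among the same groups, with a median of 35.1% G or C in the windows of intron members, 42% in 5′ UTRs and 57.2% in coding exons. Its part in the result was not tested. By the transcripts that start at the nearest TSS, 101 members lay in the first exon, 50 in the first intron, 9 in later exons and 2 in later introns.

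**Figure D3:**
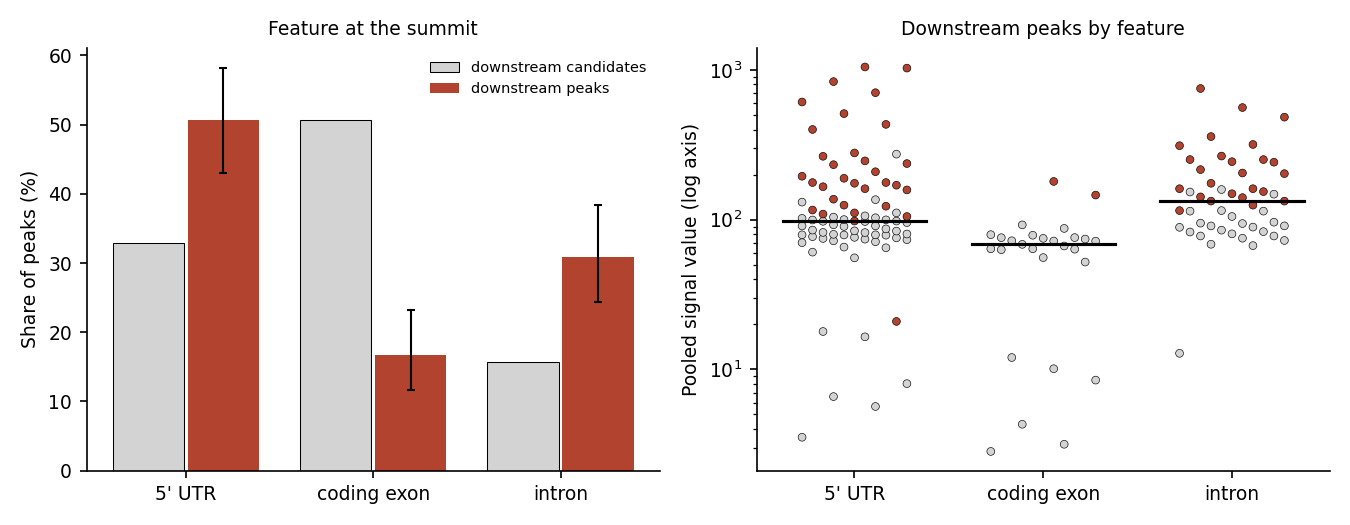
The left plot gives the share of 7934 downstream candidates and of the 162 downstream peaks whose summit was in a 5′ UTR, a coding exon or an intron, with 95% Wilson intervals for the peaks. The right plot gives the pooled signal value of each downstream peak on a log axis, red where both replicates' lists held it, with a line at the median of 98.7, 68.4 and 133.

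The genes of downstream peaks less often had a long first intron than those of upstream peaks. A first intron over 1000 bp was found in 39 of 131 genes with downstream peaks alone (29.8%) and in 296 of 648 with upstream peaks alone (45.7%), an odds ratio of 0.504 (Fisher's exact test, adjusted p = 0.0019 over 2 tests). The 26 genes of both classes were left out. The share over all protein-coding genes was not determined, so the contrast holds only between the classes. The ratio was 0.598 at an IDR of 0.001 (Fisher's exact test, unadjusted p = 0.0631) and 0.59 in the list of replicate 2 (p = 0.0629). The median first intron was 433 bp for all 157 genes of downstream peaks and 792 bp for the 674 of upstream peaks, and the median gene lengths were 3953 and 6414 bp.

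More than 1 TSS position was annotated for 86 of the 131 genes (65.6%) and for 363 of the 648 (56%), with an odds ratio of 1.5 (Fisher's exact test, adjusted p = 0.0424), against 26.5% of all protein-coding genes. A gene with several TSSs has more ways to meet the rule. Without the 42 members that had a TSS ahead, the shares were 52.6% and 56.4% and the ratio was 0.861 (Fisher's exact test, p = 0.509).

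Summit windows, 100 bp either side of the summit, differed in composition between the classes. Within 50 bp on either side, A and T made up 58.2% and 59% of the bases at downstream summits, and 67.7% and 65.9% at upstream ones. The median share of G and C in the 201-bp window was 41.8% over the members, from 24.4 to 73.6%, and 34.3% upstream. Among the members it was 35.8% in the strongest 54, 38.6% in the middle 54 and 49.8% in the weakest 54. It was 35.8% in the 59 found in both replicates and 44.8% in the other 103. By these medians, given without a test, the strongest members were closer to the upstream peaks as a whole in composition than the weakest were. The upstream peaks were not split by strength.

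**Figure D4:**
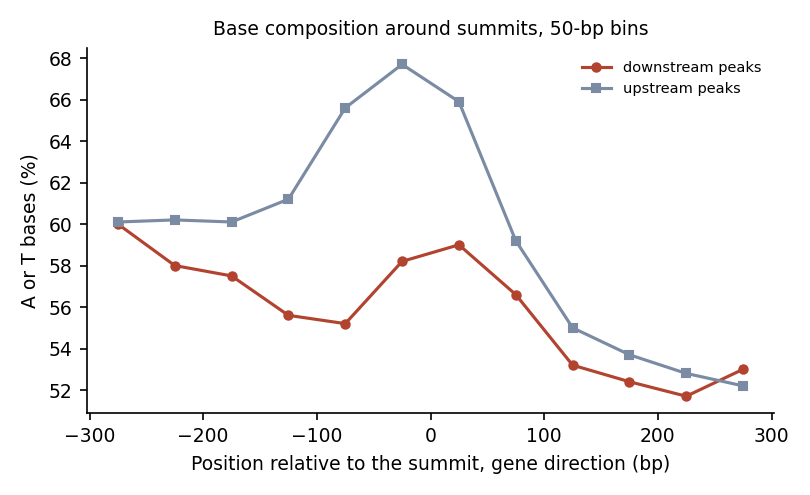
The percentage of A or T bases is plotted per 50-bp bin against position relative to the summit, in the direction of the gene, for the 162 downstream and the 713 upstream peaks. At the bins beside the summit the downstream peaks are at 58.2% and 59% and the upstream peaks at 67.7% and 65.9%, and both decline further into the gene.

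Of 25 motifs compared between the classes on both strands, 1 (4%) differed. The motifs were chosen with earlier results of these data known, so adjusted p-values here and below do not cover that choice. TATAAA, the word of the TATA box, was in the window of 34 members (21%, interval 15.4 to 27.9%) and of 256 upstream peaks (35.9%), an odds ratio of 0.474 (Fisher's exact test, adjusted p = 0.00524). Of 201-bp windows centred on all 19276 protein-coding TSSs, 26.9% held it. The composition of the windows differed in the same direction, and its part in this was not tested. Among summits within 200 bp of the TSS the ratio was 0.373 (Fisher's exact test, adjusted p = 0.00919). It was 0.621 in the conservative list (Fisher's exact test, adjusted p = 0.131), 0.624 in replicate 1 (adjusted p = 0.294) and 0.593 in replicate 2 (adjusted p = 0.368). The remaining motifs included CGATA, the word of the insulator protein BEAF-32, at 30.9% of members and 27.5% upstream. GAGAGAG, the word of the GAGA factor, was at 1.85% and 5.33% (Fisher's exact test, adjusted p = 0.318). TATCGATA, the DNA replication-related element, was at 3.09% of both.

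Between the summits and windows 500 bp further in the direction of the gene, again 1 of 25 motifs (4%) differed. These inner windows need not lie inside a short gene. AGGGNTG was in 22 summit windows (13.6%) and 5 inner windows (3.09%), and no member held it in both windows (exact McNemar test, two-sided, adjusted p = 0.0378). It was in 9.82% of upstream windows, in 17.1% of windows with TSSs of both strands and in 7.33% of windows at all protein-coding TSSs. The difference was not particular to the members. At upstream peaks 3.79% of windows 500 bp away in the direction of the gene held AGGGNTG (exact McNemar test, unadjusted p = 5.69e-06). In 6 of the 22 members the word overlapped a match of the longer promoter element Ohler 7, and in 2 it overlapped the downstream promoter element. With the comparison window 500 bp on the other side, 6.79% of windows held the word and the adjusted p was 0.59. Windows of 50 bp either side gave 4.94% and 1.23% (exact McNemar test, adjusted p = 0.852).

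The members with AGGGNTG had a median position of 94 bp, against 146 bp over all members, and 18 of the 22 were within 200 bp, against 97 of 162. Signals ran from 12.8 to 274 with a median of 99.5, against 95.9 over all members, and 5 of the 22 were in both replicates: RpL26, zf30C, wde, CG14818 and IntS6. RpL26, for a protein of the large ribosomal subunit, had 266 in the pooled list, 145 in replicate 1 and 132 in replicate 2, and zf30C had 237, 134 and 95.9. RpS7, for the small subunit, had 84.2, 62.3 and 32.2 and passed in replicate 1 alone. Hsp83, the gene of the Hsp90 chaperone, had 82, 44.4 and 37 and also passed in replicate 1 alone.

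The orientation of motifs relative to the gene showed no call after adjustment. CGATA alone reached an unadjusted p under 0.05, with 9 members holding it in the sense direction only and 25 in the antisense direction only (exact binomial test, two-sided, p = 0.00904).

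**Figure D5:**
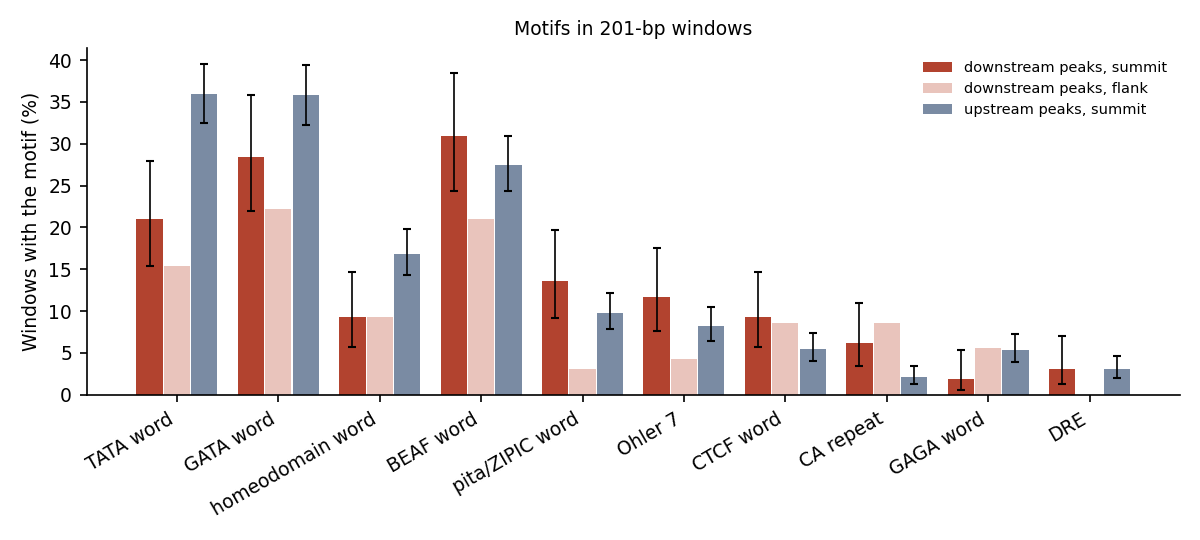
Bars give the percentage of 201-bp windows that held each of 10 of the 25 motifs on either strand. The windows were at downstream summits, 500 bp further in the direction of the gene, and at upstream summits, with 95% Wilson intervals for the summits. The TATA word is at 21%, 15.4% and 35.9%, and the pita/ZIPIC word at 13.6%, 3.09% and 9.82%.

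At the TSSs themselves, 1 of 8 core promoter motifs (12.5%) differed between the classes. The initiator, TCA followed by G or T, then T, then C or T, was sought on the sense strand from 5 bp before to 6 bp after the TSS. It was found at 6 of 145 TSSs nearest to downstream peaks (4.14%, interval 1.91 to 8.73%) and at 91 of 671 nearest to upstream peaks (13.6%), against 8.38% of all 19276 protein-coding TSSs. The odds ratio was 0.275 (Fisher's exact test, adjusted p = 0.00769), with 13 TSSs of both classes left out. It was 0.19 in the list of replicate 1 (Fisher's exact test, p = 8.82e-04) and 0.446 in that of replicate 2 (p = 0.096). A TATA box from 40 to 20 bp before the TSS was at 4.83% and 3.43% (Fisher's exact test, adjusted p = 0.926).

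In a scan of all 32896 words of 8 bases over the whole list, 3.46% passed as more frequent at summits than 500 bp away and 684 words passed as less frequent (exact McNemar test, adjusted). Of the 40 leading words, 6 (15%) differed between downstream and upstream peaks, all of A and T alone and all less frequent downstream. The words were chosen on the same windows, over a list with 713 upstream and 162 downstream peaks. The comparison is thus not independent of that choice. Window composition differed between the classes in the same direction, and its part was not tested. AATAATAT was at 2 members (1.23%) and 8.27% of upstream peaks (Fisher's exact test, adjusted p = 0.0196). CACTGAGA, which led the scan, was at 3 members (1.85%) and at 3.79% upstream (Fisher's exact test, adjusted p = 0.449).

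Gene lists are given by counts alone. The lists are selections and need not hold every gene of a class. Of 13968 protein-coding genes, 157 (1.12%) had a downstream peak, 674 an upstream one and 1984 a peak of any class. Among genes of chromatin architecture, 3 of 19 interband and insulator genes did. Trl, which encodes the GAGA factor, had 279 in the pooled list, 121 in replicate 1 and 158 in replicate 2. pita, a zinc-finger insulator protein, had 76.2 in the pooled list, with candidates of 52.7 in replicate 1 and 28.7 in replicate 2. BEAF-32, a boundary element protein, had 74.2, with candidates of 35.1 and 32.8. Of the 3, Trl alone was in both replicates.

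In the MADF-BESS family itself 2 of 23 genes had one, both in introns and both in both replicates. hng3 (hinge3) had 242 in the pooled list, 147 in replicate 1 and 96.1 in replicate 2, 422 bp into the gene. stwl (stonewall, which acts in germline stem cells) had 133, 74.1 and 73.1, 386 bp in. None of the 23 listed genes had an upstream peak, and 7 of them had a peak of any class.

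Of 93 genes of cytosolic ribosomal proteins 4 had a downstream peak and 12 an upstream one. RpS29 had 111 in the pooled list, with candidates of 62.4 in replicate 1 and 41 in replicate 2, and RpS15Aa had 77, with 38.1 and 40.9. Of the 4, RpL26 alone was in both replicates, and in each of the 4 at least 1 other coding TSS lay ahead.

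Of 42 cell cycle genes 3 had one. Dp, the dimerisation partner of E2F, had 140.4 in the pooled list, 64.4 in replicate 1 and 70.8 in replicate 2. Cdk4, a cyclin-dependent kinase gene, had 78.8, with candidates of 41.9 and 27.8, and polo, a mitotic kinase gene, had 64.9, with candidates of 32.8 and 36. Of these Dp alone was in both replicates.

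Of the lists reported here, 5 further ones held a single gene each. ph-p was the 1 of the 32 genes listed as Polycomb and trithorax group, a list that does not hold Trl. lab, the Hox gene labial, was the 1 of 36 homeobox segmentation and Hox genes, with 114 in the pooled list and candidates of 37.5 in replicate 1 and 75.2 in replicate 2. eIF2D (a translation factor, 79), Hsp83 (82) and fra (the Netrin receptor Frazzled, 3.52) were the others, and of these 5 genes ph-p alone was in both replicates. The lists of mitochondrial ribosomal proteins, proteasome subunits, general transcription factors, Sox and HMG genes, RNA binding and splicing factors, and kinases and signalling receptors held no gene with a downstream peak. This holds for the listed genes and not for whole classes. The kinase genes polo and Cdk4, for example, were counted with the cell cycle genes.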

How the data were processed

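ChIP-seq peaks of CG4404-eGFP were taken as deposited, on dm6 per the labels. The authors called peaks for each replicate and for the pool of both. Each deposited peak carries the authors' signal, whose scale is not given, and the ranked lists carry the −log10 of the IDR, per the file headers. The other deposited columns are positions and summits. The aligner and the peak caller: not given in the sources used here. Read depth was not used, so precision is limited by the number of peaks.

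TSSs, exons and introns came from Ensembl 115 (BDGP6, the same assembly as dm6) and sequence from RefSeq. Classes of peaks were compared by two-sided Fisher's exact tests, summit and inner windows by exact McNemar tests and motif strands by exact binomial tests, with Benjamini-Hochberg adjustment at 0.05 within each family. The 95% Wilson intervals of shares cover counting error only. Neighbouring peaks are not independent. Python 3.11.15, pandas 2.3.3, numpy 2.4.6, scipy 1.17.1 and matplotlib 3.10.9 were used, and the code was tested on simulated data. Alternatives changed the peak list, the TSS window, the sequence window and the overlap.

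The members, motifs and gene lists were chosen with earlier results of these data known. Named genes are the 25 members of highest signal found in both replicates, up to 3 per gene list and per feature, and those at the edges of the rule; pnut, CG14818, IntS6 and pck were chosen after their values were seen. The result for 1 gene list is not reported here.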

Additional observations from a re-analysis of the deposited data

How the results depend on the processing

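Of 81 alternatives for 16 results, 51 were counted as the same, 16 lost the call, 13 moved a count or value and 1 reversed. Those counted as the same include kept calls, but also counts or percentages near the main one. They also include results without a call in either setting, whose direction was not compared. The number of downstream peaks, 162, was 72 at an IDR of 0.001, 289 with a TSS window of 1000 bp, and 74 to 113 in the lists of single replicates. The replicate support ratio kept its call under all 6 alternatives tried. The signal ratio, 0.369, was 0.724 at an IDR of 0.001 and 0.626 to 0.628 in single replicates. The number of motifs called between classes, 1, was 0 with windows of 50 bp, in the conservative list, at an IDR of 0.001 and in either replicate (range 0 to 0). The ratio of TATAAA, 0.474, was 0.487 with windows of 50 bp, 0.621 in the conservative list, 0.737 at an IDR of 0.001 and 0.593 to 0.624 in single replicates, none of them past the threshold. The number of motifs called between summit and inner window was 0 with windows of 50 bp, at an IDR of 0.001, with the window on the other side and in single replicates (0 to 0). The difference for AGGGNTG, 10.5 percentage points, was 3.7 with windows of 50 bp, 9.72 at an IDR of 0.001, 6.79 with the other window and 8.11 to 12.4 in single replicates, without a call in any of these, and 12.3 in the conservative list, with one. The initiator ratio was 0.19 to 0.446 in single replicates. The first intron ratio was 0.598 at an IDR of 0.001 and 0.59 to 0.595 in single replicates. The ratio for several TSSs was 1.31 in the conservative list and 0.861, reversed, without members that had a TSS ahead. The cause was not tested, except that in this last case the members left out have several TSSs by construction when the TSS ahead is of the same gene. The alternatives without TSSs ahead, within 200 bp, without weak or overlapping peaks, and those for the initiator and gene structure were chosen after seeing the data. No paired analysis was possible because there is a single group, so that no groups share replicate numbers.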

Other observations

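The letters CACTG recur among the leading words of the whole list, and their shares at downstream peaks are given here as a description, without a test, since they were chosen after the scan. CACTG was in the 201-bp windows of 78 members (48.1%). It was in 33.3% of inner windows, 500 bp further in the direction of the gene, and in 25.9% of outer windows, 500 bp in the other direction. Upstream summits held it in 45.9% of cases, summits with TSSs of both strands in 37.1%, summits with no protein-coding TSS within 500 bp in 53.4%, and windows at all protein-coding TSSs in 36.9%. The longer CACTGTGC was at 11 members (6.79%), 3.7% of the inner windows and none of the outer windows of the same members. It was at 6.73% of upstream peaks, 2.61% of peaks with TSSs of both strands, 5.07% of peaks with no protein-coding TSS within 500 bp and 0.991% of all protein-coding TSSs. Its share was 5.08% in the 59 members found in both replicates and 7.77% in the other 103.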
